A study of Rattus norvegicus with 2 samples.

Results

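The genes of the NRF2 pathway and the antioxidant enzymes were compared between 2 expression arrays of AT6.1, a rat prostate cancer cell line. A list of 39 genes was set by gene name, with earlier results of these data known. Of these, 37 had a probe set annotated to exactly 1 gene, out of 14217 genes with such a probe set, and 32 had a signal above the floor in at least 1 array. All 32 were above it in both arrays. Here the floor is the median of all signals of both arrays, 31.0, under which signals were set equal. One array came from cells transfected with pcDNA3 into which N-myc downstream regulated gene-1, here Ndrg-1, had been inserted, and the other from cells with pcDNA3 and no insert. Each group was 1 clone. Both were grown in RPMI medium with 10% FCS and kept under G418 at 0.3 mg/mL, so both groups carry the resistance vector. With 1 array per group there is no replicate and no test, and clone, culture, array and insert cannot be told apart. In such bulk RNA, a smaller share of cells with a transcript cannot be told apart from less transcript per cell.

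NRF2, the product of Nfe2l2, is a transcription factor that KEAP1 holds in the cytoplasm and delivers for degradation. When electrophiles or oxidants modify KEAP1, NRF2 accumulates, pairs with small MAF proteins and binds antioxidant response elements near genes for glutathione and thioredoxin metabolism, quinone reduction and NADPH supply. Superoxide dismutases turn superoxide into hydrogen peroxide, which catalase, glutathione peroxidases and peroxiredoxins then remove.

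The data showed small differences for most of these genes and a large one for Sod3, the extracellular superoxide dismutase. Ratios are given as log2 of the Ndrg-1 array over the vector array, after the vector array was rescaled by 0.0048 on the log2 scale so that the median ratio of probe sets above the median signal was 0. Of the 32 measured genes, 21 had a ratio below 0 and 11 above 0, with a median log2 ratio of -0.19. Over all 9182 measured genes, 49.6% were below 0 and the median was 0.0029. At least 2-fold lower was 1 of the 32 genes, against 1.5% of all measured genes. At least 2-fold higher were 0 of the 32, against 1.62% of all measured genes. Among the listed genes 26 lay within 0.5 of no difference (81.3%), against 85.5% of all measured genes.

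The split of signs moved with the scaling. With the 18 hybridisation spikes as the reference, 29 of the 32 genes were above 0, and with the 24 poly-A spikes as the reference 7 were. The same scalings moved the median log2 ratio of all genes to 0.53 and to -0.21. They put 7.88% and 1.10% of all genes at least 2-fold higher and 0.463% and 2.61% at least 2-fold lower. Ratios below are therefore relative to the median gene. The error that could be read from these 2 arrays is how far probe sets of a gene differ in ratio, with an SD of 0.23 on the log2 scale over 5336 probe sets of 2296 genes. It leaves out variation between clones, cultures and arrays.

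The ratio also depended on signal. Among the 347 genes whose mean signal reached 2000, 92.2% were below 0, with a median log2 ratio of -0.23 and a 5th to 95th percentile range of -0.49 to 0.03. All 9 listed genes in that range were below 0, with a median of -0.47. The control probe sets for Actb, a housekeeping gene in the same range, lay between -0.41 and -0.35, and those for Gapdh between -0.47 and -0.41. Among genes with a mean signal of 500 to 1000 the median of all genes was 0.0083, and the 4 listed genes were all above 0. Subtracting a smooth (lowess) trend of ratio on signal left 18 of the 32 genes below 0 and a median of -0.11. The part of this bend in the ratios of single genes was not tested, and ratios of bright genes are also given below after subtraction of the trend.

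**Figure D1:**
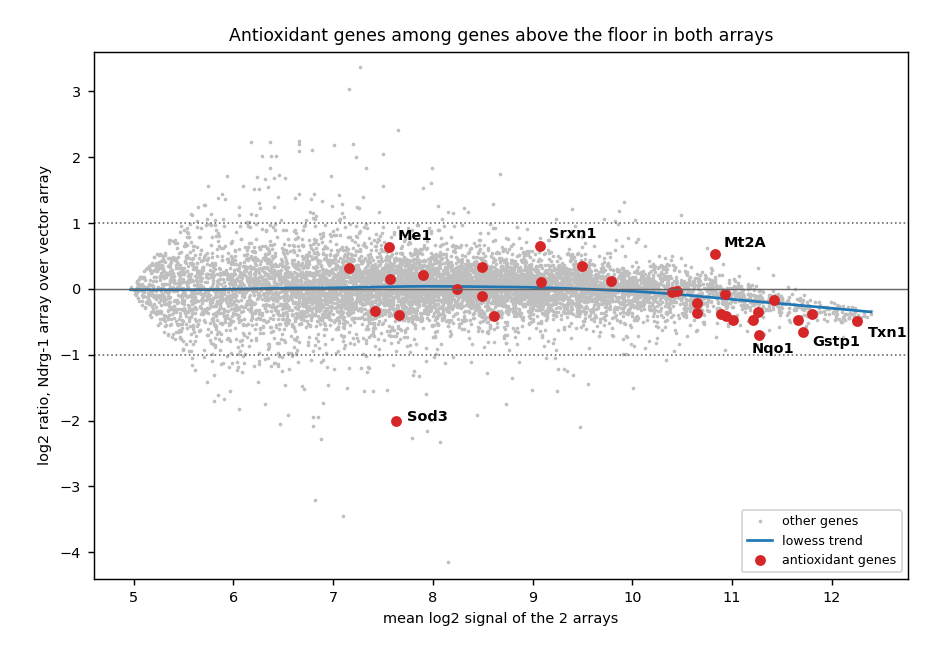
Log2 ratio of the Ndrg-1 array over the vector array against the mean log2 signal, for every gene above the floor in both arrays (grey) and for the 32 antioxidant genes (red), with the lowess trend (blue) and dotted lines at 2-fold. The trend bends below 0 at high signal, where 9 of the 9 antioxidant genes whose mean signal reached 2000 lie below 0, and Sod3 alone among the red points lies beyond 2-fold.

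By the labelled cell type, the arrays showed the mesenchymal marker Vim at 4344 (Ndrg-1) against 5798 (vector). Of 6 epithelial markers only Krt8 was above the floor, at 38.7 and 46.2, and Krt18, Krt19, Krt5, Cdh1 and Epcam were under it, as was the prostate marker Pbsn. The summed signal of the epithelial markers was 69.8 and 83.3. Of 4 macrophage and leukocyte markers 3 exceeded the floor in 1 or both arrays, while the defining marker Ptprc was at 2.72 and 3.25. Cd68 was higher with Ndrg-1, at 206 against 114 (log2 ratio 0.85), and Cd14 lower, at 209.9 against 308 (-0.56). The summed signal of all 4 was 434 and 459, and their part in the results was not tested. Endothelial, hepatocyte and erythroid markers were under the floor in both arrays. Rat Ndrg1, the gene of the same name as the insert, had log2 ratios of 0.34 and -0.24 on its 2 probe sets. The array labelled Ndrg-1 thus did not show it 2-fold higher on these probe sets. Whether they read the inserted sequence was not tested.

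The binding site of NRF2 was looked for in promoter windows from RefSeq (assembly GRCr8), each 300 bases long with 250 before and 50 after a gene's start. Sequence outside these windows was not searched, so a window without a match does not show that a gene lacks the site. The core searched was TGACNNNGC on both strands, in which N is any base. It was found in at least 1 window of 15 of the 35 listed genes with a window (42.9%) and in 13.1% of all 27457 genes with one. Listed genes commonly described as NRF2 targets held it in 9 of 19 cases (47.4%), and the other listed genes in 6 of 16 (37.5%). For the measured genes it was 10 of 28 (35.7%). Among 62 further NRF2 and redox genes with a window, described at the end, the share was 17.7%. The form TGACTCAGC, in which the core overlaps the AP-1 letters TGACTCA, was in the windows of 4 listed genes, Gstp1, Me1, Mt2A and Prdx1, and in 0.484% of all genes. The AP-1 letters alone were in 5 listed genes, these 4 and Srxn1, and in 5.04% of all genes. The Srxn1 window holds TGAGTCAGC, which the core searched does not match because it requires TGAC, and other forms were not searched. The windows below are shown because the first 3 hold the identical core beside ratios of opposite sign, and the last holds a core on the opposite strand. Capitals mark the core, 5' to 3' on the gene's strand.
Gstp1 (chr1:210769656-210769955, minus strand): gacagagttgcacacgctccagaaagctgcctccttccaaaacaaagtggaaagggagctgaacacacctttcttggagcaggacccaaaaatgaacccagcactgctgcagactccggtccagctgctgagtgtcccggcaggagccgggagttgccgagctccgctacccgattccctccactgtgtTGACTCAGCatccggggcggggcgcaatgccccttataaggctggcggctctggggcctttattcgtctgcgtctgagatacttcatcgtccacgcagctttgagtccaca
Me1 (chr8:96540195-96540494, minus strand): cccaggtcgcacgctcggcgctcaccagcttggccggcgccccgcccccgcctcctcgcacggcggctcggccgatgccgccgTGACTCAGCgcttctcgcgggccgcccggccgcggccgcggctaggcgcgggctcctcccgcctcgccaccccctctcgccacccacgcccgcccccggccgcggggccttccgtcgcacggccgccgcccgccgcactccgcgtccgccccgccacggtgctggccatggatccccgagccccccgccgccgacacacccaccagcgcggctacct
Mt2A (chr19:10838659-10838958, minus strand): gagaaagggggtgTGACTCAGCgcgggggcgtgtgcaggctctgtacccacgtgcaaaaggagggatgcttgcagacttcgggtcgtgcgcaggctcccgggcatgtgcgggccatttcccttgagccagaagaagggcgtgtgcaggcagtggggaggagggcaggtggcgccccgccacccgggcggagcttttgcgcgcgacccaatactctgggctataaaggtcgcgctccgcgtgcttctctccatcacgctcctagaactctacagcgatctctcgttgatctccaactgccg
Gclm (chr2:213031885-213032184, plus strand): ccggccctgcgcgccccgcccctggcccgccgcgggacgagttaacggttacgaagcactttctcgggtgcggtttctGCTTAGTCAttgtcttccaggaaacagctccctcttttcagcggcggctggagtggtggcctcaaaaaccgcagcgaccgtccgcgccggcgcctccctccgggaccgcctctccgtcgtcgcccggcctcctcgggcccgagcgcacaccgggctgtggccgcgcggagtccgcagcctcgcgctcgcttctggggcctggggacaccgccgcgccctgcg

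A match is a description of letters and not evidence of binding. In Gstp1 the core begins 61 bases before the start and the gene was lower in the Ndrg-1 array (log2 ratio -0.65). In Me1 it begins 167 bases before the start and in Mt2A 237 bases before, and these genes were higher (0.64 and 0.53). The window of Gclm holds TGACTAAGC on the opposite strand. Read on the gene's strand, the marked stretch begins 172 bases before the start, and the ratio of Gclm was 0.33. The 10 measured genes with a core in the window had ratios from -0.65 to 0.64. Prdx1, Gsta2, Gpx2, Gsta3 and Mt1a also held a core but were not measured on these arrays by the rule used.

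**Figure D2:**
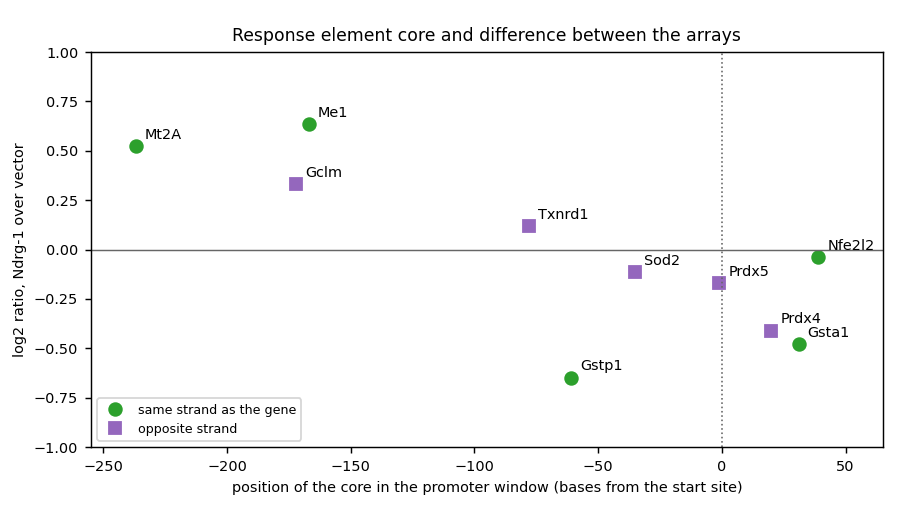
Position of the response element core, in bases from the start site, against the log2 ratio for the 10 measured antioxidant genes whose promoter window holds it, with circles for a core on the gene's strand and squares for the opposite strand. Me1 and Mt2A lie above 0 and Gstp1 below, with the same 9 letters.

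The regulators differed little. Nfe2l2 had a signal of 1381 (Ndrg-1) against 1413 (vector), a log2 ratio of -0.04 (0.04 after the trend). Keap1 had signals of 199 and 180, a ratio of 0.14. A second Keap1 probe set was at 27.2 and 38.7, with the Ndrg-1 array at the floor, and gave -0.32 or lower, so the 2 probe sets pointed opposite ways.

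Enzymes of glutathione synthesis and recycling were above 0 in 3 of 4 cases, in 2 with the poly-A spikes as the reference and in all 4 with the hybridisation spikes. Gclc, the catalytic subunit of the rate-limiting ligase of glutathione synthesis, was at 561 (Ndrg-1) against 522 (vector) (log2 ratio 0.10), and its second probe set was at 0.0075. Gclm, the modifier subunit of that ligase, was at 403 and 319 (0.33). Gsr, the reductase that regenerates glutathione with NADPH, was at 258 and 222 (0.22). Gss, which adds the last amino acid of glutathione, went the other way, at 153 and 192 (-0.34). The median of the 4 genes was 0.16, and all 4 were nearer to 0 than 2 SD between probe sets of a gene (0.46).

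Glutathione S-transferases, which couple glutathione to electrophiles, were below 0 in 3 of the 4 measured, and in 1 with the hybridisation spikes as the reference. Gstp1, the pi-class enzyme, was at 2683 (Ndrg-1) against 4191 (vector), a log2 ratio of -0.65 (1.57-fold lower). At its signal the trend over all genes stood at -0.25, which left -0.39. Gsta1 of the alpha class was at 2003 and 2783 (-0.48, and -0.29 after the trend). Gstm1 and Gstm2 of the mu class were at 176 and 231 (-0.40) and at 159.5 and 128 (0.31), so this pair lay on opposite sides of 0. Gsta3 and Gsta4 were under the floor in both arrays. The probe set of Gsta2 is annotated to a second gene as well and was not used. Transferases of a class are closely similar in sequence, and whether a probe set reads only its named gene was not tested.

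Glutathione peroxidases, which reduce peroxides at the expense of glutathione, were below 0 in all 3 measured, and above 0 in all 3 with the hybridisation spikes as the reference. The cytosolic enzyme Gpx1 was at 1488 (Ndrg-1) against 1723 (vector) (log2 ratio -0.22). The secreted enzyme Gpx3 was at 2754 and 3795 (-0.47). Gpx4, which reduces lipid peroxides within membranes, was at 2173 and 2751 (-0.34), and its second probe set was under the floor. After the trend was subtracted these ratios were -0.11, -0.22 and -0.15, each nearer to 0 than 1 SD between probe sets. Gpx2 was under the floor in both arrays.

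**Figure D3:**
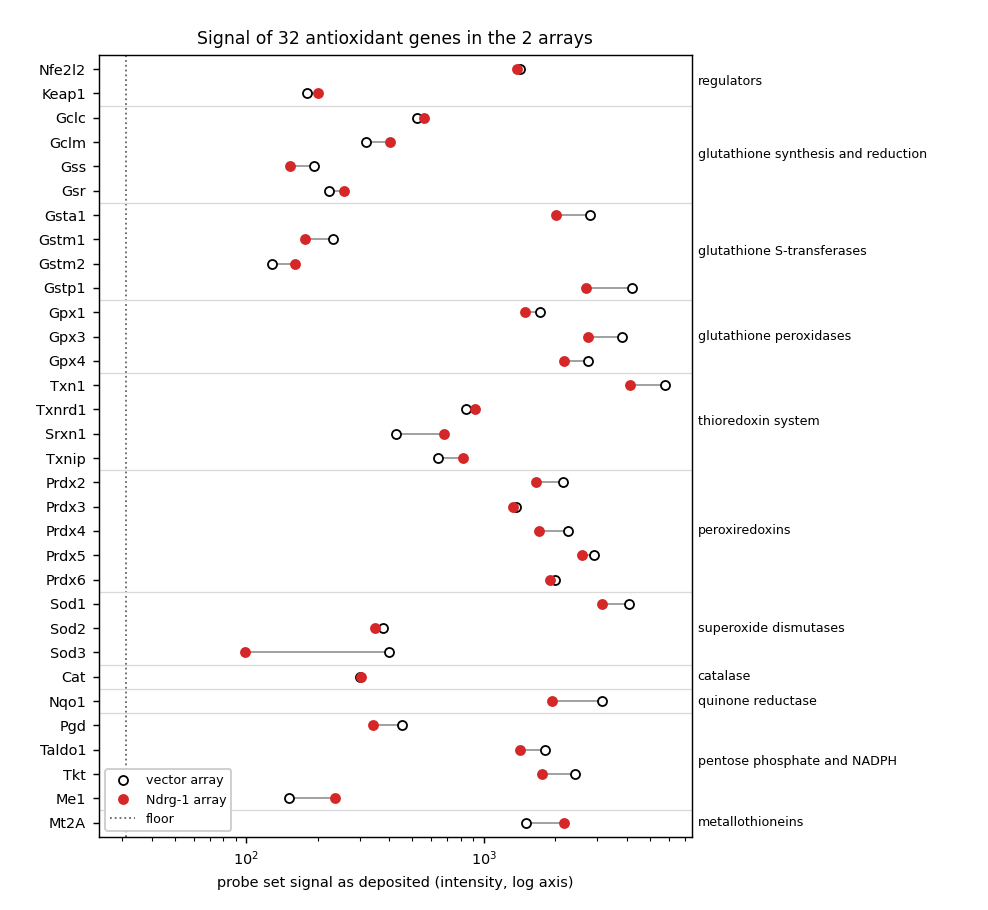
Deposited signal of each of the 32 measured genes in the vector array (open circles) and the Ndrg-1 array (red circles) on a log axis, grouped by role, with the floor of 31.0 as a dotted line. Sod3 shows the widest gap, from 397.5 in the vector array to 98.8 in the Ndrg-1 array, and the peroxiredoxins and glutathione peroxidases have their red circle on the left.

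The thioredoxin system had 3 genes above 0 and 1 below, with all 4 above 0 on the hybridisation spikes as the reference and 2 above and 2 below on the poly-A spikes. Srxn1, the sulfiredoxin that repairs overoxidised peroxiredoxins, was at 676 (Ndrg-1) against 427 (vector), a log2 ratio of 0.66 (1.58-fold higher). Its second probe set above the floor was at 194 and 134 (0.53), and a further one was under the floor. Its ratio exceeded that of 95.7% of all measured genes. Txnip, which binds and inhibits thioredoxin, was at 815 and 639 (0.35). Txnrd1, the cytosolic thioredoxin reductase, was at 918 and 843 (0.12), and its second probe set was at -0.04. Txn1, thioredoxin itself, was at 4118 and 5762 (-0.49). Its ratio after the trend was -0.16.

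All 5 measured peroxiredoxins, which reduce peroxides through a reactive cysteine, were below 0, and above 0 with the hybridisation spikes as the reference. Prdx2 was at 1654 (Ndrg-1) against 2155 (vector) (log2 ratio -0.39), and Prdx4, which is found in the endoplasmic reticulum, at 1703 and 2255 (-0.41). The mitochondrial Prdx3 was at 1329 and 1369.9 (-0.05). Prdx5 was at 2586 and 2899 (-0.17) and Prdx6 at 1902 and 1992 (-0.07). The lower pair, Prdx2 and Prdx4, stood at -0.24 and -0.26 after the trend, and the other 3 turned to between 0.03 and 0.08. The probe set of Prdx1 is annotated to a second gene as well and was not used.

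Sod3 stood apart from the other superoxide dismutases. Its signal was 98.8 (Ndrg-1) against 397.5 (vector), a log2 ratio of -2.01 (4.04-fold lower), and 0.19% of all measured genes had a lower ratio. It was represented by 1 probe set. The cytosolic Sod1 was at 3131 and 4059.9 (-0.38, and -0.11 after the trend), and the mitochondrial Sod2 at 347 and 374 (-0.11). With the hybridisation spikes as the reference Sod1 and Sod2 were above 0, at 0.16 and 0.43, and Sod3 was at -1.47. The 20 measured genes nearest to Sod3 on chromosome 14 had a median log2 ratio of -0.02, with 10 of them above 0. Catalase, Cat, which breaks down hydrogen peroxide in peroxisomes, had almost equal signals of 303 and 302, a log2 ratio of 0.00020.

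**Figure D4:**
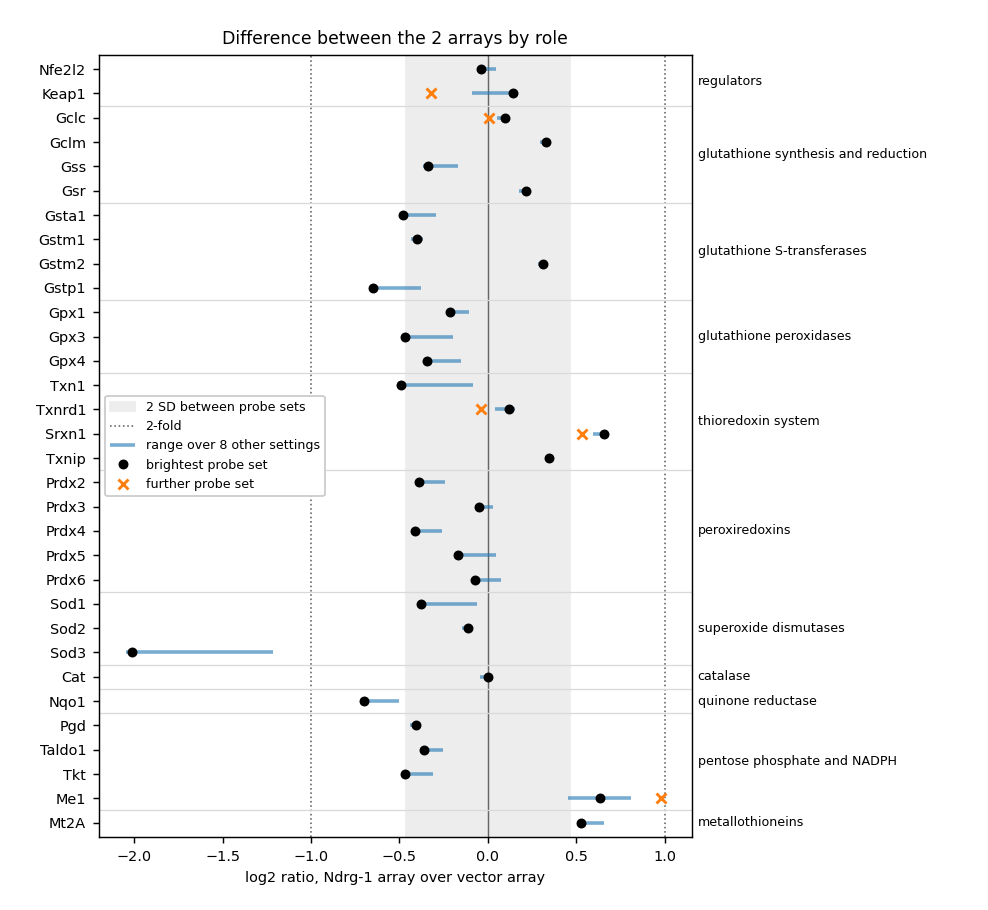
Log2 ratio of the Ndrg-1 array over the vector array for the 32 measured genes by role, with the brightest probe set (black), further probe sets above the floor (orange crosses), the range over up to 8 other settings without the spike scalings (blue), 2 SD between probe sets of a gene (grey band) and 2-fold (dotted). Sod3 lies beyond 2-fold at -2.01, Nqo1 at -0.70 and Srxn1 at 0.66 lie outside the grey band, and the crosses of Srxn1 and Me1 lie on the same side of 0 as their black points.

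Genes commonly described as NRF2 targets did not differ in 1 direction. Of 16 measured, 9 were below 0 and 7 above, with a median of -0.22. Of the other 16 listed genes, 12 were below 0 and the median was -0.19. All 7 targets above 0 had a mean signal under 1000, as did only Gstm1 and Pgd of the 9 below. After the trend was subtracted Prdx6 alone of the 16 targets changed sign, to 0.08. With the hybridisation spikes as the reference only Gstp1 and Nqo1 of the targets were below 0. With the poly-A spikes Gclc and Txnrd1 were below 0 in addition to the 9. Nqo1, the quinone reductase often read as the marker of NRF2 activity, was at 1940.0 (Ndrg-1) against 3138 (vector), a log2 ratio of -0.70 (1.62-fold lower). Its ratio after the trend was -0.50, and 3.65% of all measured genes had a lower ratio. Relative to the median gene, Nqo1 and Srxn1 thus differed between the arrays in opposite directions. Each did so by more than 2 SD between probe sets (0.46), as did 16.9% of all measured genes in either direction. Nqo1 was within that limit with the hybridisation spikes (-0.15), and Srxn1 with the poly-A spikes (0.44). Variation between clones, cultures and arrays is not in that SD.

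Pentose phosphate and NADPH genes were below 0 in 3 of 4 cases, and in 0 with the hybridisation spikes as the reference. Pgd, which makes NADPH in the oxidative branch, was at 341 (Ndrg-1) against 450.4 (vector) (log2 ratio -0.41). The transaldolase Taldo1 and the transketolase Tkt, of the non-oxidative branch, were at 1412 and 1811 (-0.36) and at 1750.4 and 2416 (-0.47), which left -0.26 and -0.31 after the trend. Me1, the cytosolic malic enzyme that also yields NADPH, was higher, at 235 and 151 (0.64, 1.55-fold), and its second probe set was at 260.4 and 132 (0.98). The 20 measured genes nearest to Me1 on chromosome 8 had a median log2 ratio of 0.23, with 13 above 0, the highest neighbour median of any of the 32 genes. The part of that neighbourhood in the ratio of Me1 was not tested. The neighbour medians of the 32 genes went down to -0.19, at Gsta1.

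Of the metallothioneins, small cysteine-rich proteins that bind zinc and copper, Mt2A was measured. Its signal was 2177 (Ndrg-1) against 1507 (vector), a log2 ratio of 0.53, where the trend over all genes stood at -0.13. Among the 746 genes with a mean signal of 1000 to 2000, the 95th percentile of the ratio was 0.31. Mt1a, named Mt1 in RefSeq, and Mt3 were under the floor in both arrays. Mt3 had a signal of 7.50 against 28.7, and a floor set at the 25th percentile of all signals gave a log2 ratio of -1.91 or lower.

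Farther from 0 than 2 SD between probe sets lay 10 of the 32 genes, against 16.9% of all measured genes. Me1, Mt2A and Srxn1 were above and Gpx3, Gsta1, Gstp1, Nqo1, Sod3, Tkt and Txn1 below. After the trend was subtracted 5 were outside, Me1, Mt2A and Srxn1 above and Nqo1 and Sod3 below, against 16.6% of all genes. For 5 of the 32 genes another probe set could be read above the floor, and it had the same sign in 3 (Gclc, Me1 and Srxn1).

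The wider pathway was described with 79 further gene names, chosen with earlier results of these data known. On the array with a 1-gene probe set were 73 of them, and 63 were measured. Of the 63, 4 were higher and 1 was lower by 2-fold or more. Over all measured genes these shares were 1.62% and 1.5%, and 3.13% in either direction. In all, 27 were above 0 and 36 below, with a median log2 ratio of -0.07. Osgin1, an oxidative stress-induced growth inhibitor, was at 184 (Ndrg-1) against 67.8 (vector) (2.71-fold higher). Hmox1, the heme oxygenase induced by NRF2 and repressed by BACH1, was at 427 and 189 (2.25-fold). Ggt1, which breaks down extracellular glutathione, was at 71.1 and 32.5 (2.18-fold), close to the floor in the vector array. Nqo2, a quinone reductase related to Nqo1, was at 65.3 against 12.9 and at least 2.10-fold higher, with the vector array at the floor. Selenop, the secreted selenium carrier, was at 21.7 against 62.9 and at least 2.03-fold lower, with the Ndrg-1 array at the floor.

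None of these 5 genes had a further probe set above the floor. With the poly-A spikes as the reference Hmox1, Ggt1 and Nqo2 no longer reached 2-fold, and with the hybridisation spikes Selenop did not. With the floor at the 75th percentile Hmox1 alone reached it, and with the pseudocount Ggt1 did not. The cystine transporter Slc7a11 was at 73.2 (Ndrg-1) against 62.9 (vector) (log2 ratio 0.21). Of the partners of NRF2, the small MAF genes Maff, Mafg and Mafk were at 0.12, -0.02 and 0.25, with a second Mafg probe set at 0.20, and the competing repressor Bach1, at the floor in the vector array, at 0.24 or more. Cul3 and Rbx1, which form the ubiquitin ligase with KEAP1, were at -0.24 and -0.19, with second probe sets at -0.46 and 0.58. Of further enzymes that yield NADPH, Idh1 was at -0.61, Idh2 at -0.48 and H6pd at -0.66. Another malic enzyme gene, Me2, was at 0.06. The further pentose phosphate genes Pgls, Rpe and Rpia were at 0.21, -0.07 and -0.14, with a second Rpia probe set at 0.16. Gstk1, a mitochondrial and peroxisomal transferase, was at 0.91. The other further glutathione transferases measured lay between -0.48 (Mgst2) and 0.47 (Mgst3). The genes from Idh1 on were named after their values were seen, as were the partners of NRF2.

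**Figure D5:**
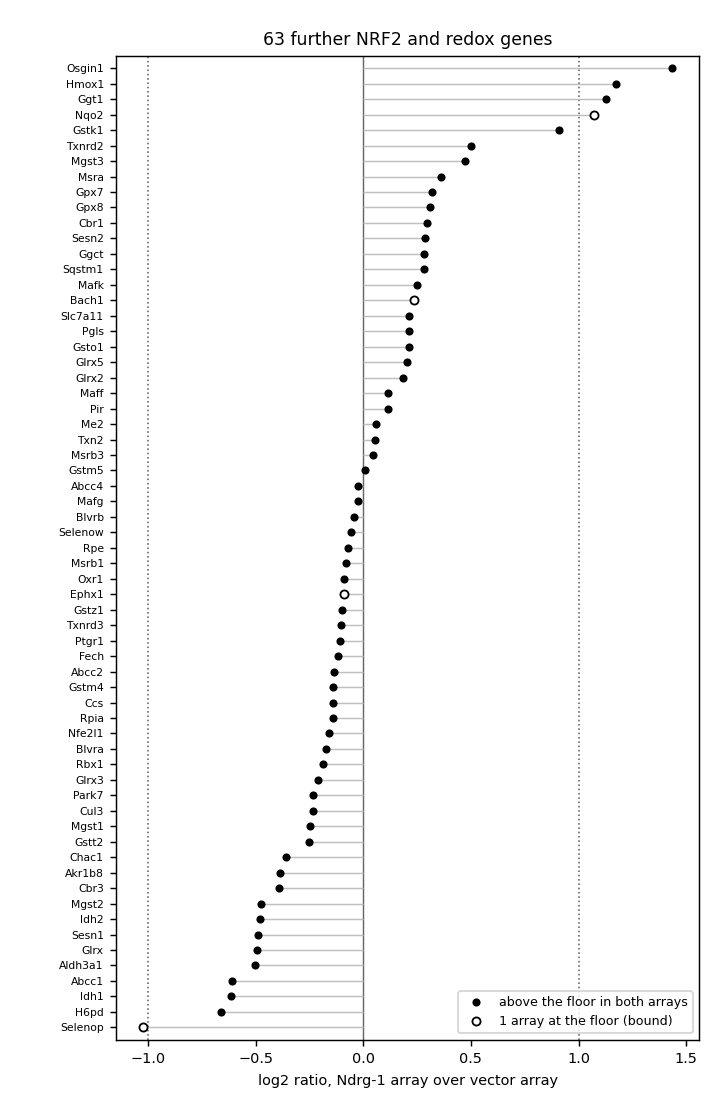
Log2 ratio of the Ndrg-1 array over the vector array for the 63 further NRF2 and redox genes measured, in order of the ratio, with filled points for genes above the floor in both arrays, open points for bounds with 1 array at the floor and dotted lines at 2-fold. Osgin1, Hmox1, Ggt1 and Nqo2 lie beyond 2-fold on the right and Selenop on the left.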

How the data were processed

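The authors deposited a linear-scale intensity for every probe set of both arrays. The submitters' processing notes name GCOS 1.3. For the probe summary, scaling target and detection calls no source used here gives details. The mean without the lowest and highest 2% was 150.0 in both arrays. Control probe sets (57 of 31099) were set apart. Probe sets with 1 gene symbol in the platform annotation (20826) were used, and 20764 matched RefSeq (GRCr8) by gene ID. For each gene the probe set of highest mean log2 signal was read. A difference was counted at 2-fold. The members and gene lists were chosen with earlier results of these data known. Text gives every measured member, the further genes that reached 2-fold, Hmox1, Slc7a11 and Ndrg1 by a fixed rule, and names some further genes chosen after their values were seen. Neighbours were the 10 nearest measured genes on each side. Lowess used a span of 0.3. Precision is limited by 1 array per group. The steps were tested on simulated data in which the ratio did not depend on signal, so the bend at high signal was not covered. Python 3.11.15, numpy 2.4.6, pandas 2.3.3, statsmodels 0.14.6 and matplotlib 3.10.9 were used.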

Additional observations from a re-analysis of the deposited data

How the results depend on the processing

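Besides the settings reported, 10 alternatives were run. For scaling these were none, quantile normalization, removal of the lowess trend and either spike set as the reference. For low signals they were a floor at the 25th or at the 75th percentile, or a pseudocount of 16 in place of the floor. For probe sets they were the median per gene, or only those not ending in _x_at or _s_at. With the hybridisation spikes the median log2 ratio of the listed genes was 0.35, 3 genes were at least 2-fold higher (Me1, Mt2A and Srxn1) and 3 were below 0 (Gstp1, Nqo1 and Sod3). With the floor at the 25th percentile 2 genes were at least 2-fold lower, Mt3 and Sod3. The number of further pathway genes at least 2-fold different was 2 with the poly-A spikes, 9 with the lower floor and 1 with the higher floor. Sod3 was at least 2-fold lower in all 10, with log2 ratios from -2.23 to -1.22. The other summary values moved by less than the SD between probe sets or by less than 1.5 times. Among 319 ratios of single genes, 277 moved by no more than that SD and 42 by more, 32 of the latter under the spike scalings. Outside these scalings 26 of the 32 genes kept their sign, and Cat, Keap1, Nfe2l2, Prdx3, Prdx5 and Prdx6 did not. Quantile normalization and removal of the trend put Txn1 at -0.08 and -0.16 and Sod1 at -0.06 and -0.11.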
